A study of Homo sapiens with 3 samples.

Results

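Polycomb repressive complexes 1 and 2 (PRC1 and PRC2) are described here through 10 of their subunit genes, out of 20033 protein-coding genes in the annotation. The genes were taken by name: EZH2, EZH1, SUZ12, EED and JARID2 for PRC2, and RNF2, RING1, BMI1, PCGF1 and CBX2 for PRC1. All 10 were found, and every listed CHD8 or TRRAP peak between 5 kb upstream of the gene and its end was collected. The peaks came from chromatin immunoprecipitation sequencing (ChIP-seq) of wild-type (WT) human neural stem cells (hNSCs) grown with EGF and FGF, which were derived from the established embryonic stem cell line H9. Chromatin was fixed with disuccinimidyl glutarate and formaldehyde and precipitated with an antibody to CHD8, an ATP-dependent chromatin remodeler, or to TRRAP, the scaffold of the TIP60 and SAGA histone acetyltransferase complexes. Each antibody was represented by 1 library from 1 cell line, so no difference below has a replicate check and no p-value was computed. The IgG control library was not analysed here.

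PRC2 methylates histone H3 at lysine 27. EZH2 or EZH1 is its catalytic subunit, SUZ12 holds the complex together, EED reads the methyl mark, and JARID2 helps to bring the complex to chromatin. PRC1 ubiquitinates histone H2A through the ligases RNF2 and RING1, each paired with a PCGF protein such as BMI1 or PCGF1, and its canonical form reads the PRC2 mark through a CBX protein such as CBX2. In neural stem cells these complexes are known for keeping differentiation genes silent and, through BMI1, for sustaining self-renewal. The data below concern the promoters and bodies of the genes that encode the subunits, not the sites that the complexes bind.

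Windows of reference sequence (GRCh38) from 6 of the peaks are shown because the results below turn on them: the strongest TRRAP peak of the group, the promoter that exists in a second copy, an E-box promoter, the strongest CHD8 peak of the group, and a pair of sites away from start sites. They are written 5′ to 3′ on the strand of the gene, and capitals mark exact matches, on either strand, to a searched transcription factor word: NFY in EZH2, E2F in SUZ12, the E-box of the MYC and MAX family in BMI1 and YY1 in PCGF1.
EZH2 promoter, TRRAP summit, chr7:148884380-148884580, minus strand: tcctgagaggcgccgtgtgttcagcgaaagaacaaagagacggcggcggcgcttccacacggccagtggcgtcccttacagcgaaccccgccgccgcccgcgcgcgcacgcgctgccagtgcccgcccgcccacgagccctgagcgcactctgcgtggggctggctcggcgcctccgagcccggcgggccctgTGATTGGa
SUZ12 promoter, TRRAP summit, chr17:31936754-31936954, plus strand: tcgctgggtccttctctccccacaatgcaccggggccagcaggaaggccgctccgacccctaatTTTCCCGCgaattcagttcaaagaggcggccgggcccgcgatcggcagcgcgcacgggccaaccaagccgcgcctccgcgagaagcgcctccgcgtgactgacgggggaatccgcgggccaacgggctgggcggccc
BMI1 promoter, TRRAP summit, chr10:22320837-22321037, plus strand: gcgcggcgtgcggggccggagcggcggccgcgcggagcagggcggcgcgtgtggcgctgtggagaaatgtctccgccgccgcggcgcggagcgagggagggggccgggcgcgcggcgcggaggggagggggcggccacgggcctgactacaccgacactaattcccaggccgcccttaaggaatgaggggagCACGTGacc
PCGF1 first exon, near the CHD8 summit, chr2:74507653-74507681, minus strand: atcagcctttAAGATGGCGtctcctcagg
RING1 upstream site, TRRAP summit, chr6:33206847-33207047, plus strand: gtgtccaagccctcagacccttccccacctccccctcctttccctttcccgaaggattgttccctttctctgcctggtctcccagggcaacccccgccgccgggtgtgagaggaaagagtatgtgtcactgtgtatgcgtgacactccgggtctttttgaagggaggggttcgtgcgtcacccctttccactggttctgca
JARID2 intron 2, TRRAP summit, chr6:15400664-15400864, plus strand: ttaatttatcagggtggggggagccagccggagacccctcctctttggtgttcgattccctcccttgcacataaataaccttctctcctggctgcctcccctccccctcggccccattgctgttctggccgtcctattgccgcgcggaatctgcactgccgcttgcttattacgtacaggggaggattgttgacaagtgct

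Peaks in these lists carry a fold over background, and the folds could be read back into whole fragments stacked at the summit (the summit count). In each list 1 background value fitted every peak, so the folds hold no correction for local background. Summit counts are given below with exact Poisson 95% intervals, which cover counting error only. They do not allow for the choice of the summit within a peak or for the calling limit. Lower bounds can therefore fall below the lowest listed count. The CHD8 list held 23393 peaks with a median summit count of 20 and a lowest count of 10, and the TRRAP list 14735 peaks with a median of 16 and a lowest count of 9, so an unlisted site may hold fewer fragments rather than none. Counts were set beside each other only within a list, because the libraries differ in antibody and the lists in the false discovery rate they are named for (0.0001 for CHD8 and 0.001 for TRRAP).

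All 10 subunit genes had a CHD8 peak within 1 kb of the canonical start site, and 9 also had a TRRAP peak there, PCGF1 being the exception. Over all coding genes, 55.9% had a CHD8 promoter peak, 34.9% had a TRRAP promoter peak and 34.0% had both. The subunit promoters are rich in CpG, with observed over expected CpG ratios from 0.766 (PCGF1) to 1.01 (EZH2), and among the 7951 coding genes within that range 55.6% had both peaks. The strongest CHD8 promoter peak had a median summit count of 40 and a median width of 1067.5 bp over the 10 genes, against 26 and 638 bp over the 11208 coding genes with a peak. For TRRAP the median summit count was 28 and the median width 366 bp over 9 genes, against 17 and 269 bp over 7000 genes. The summits of the 2 proteins at the same promoter lay a median of 148 bp apart in 9 genes, against 105 bp in 6802 genes. Only the share with both peaks was set against genes of that CpG range. The other comparisons are with all coding genes, whose median CpG ratio was 0.725 against 0.890 for the subunit genes.

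**Figure D1:**
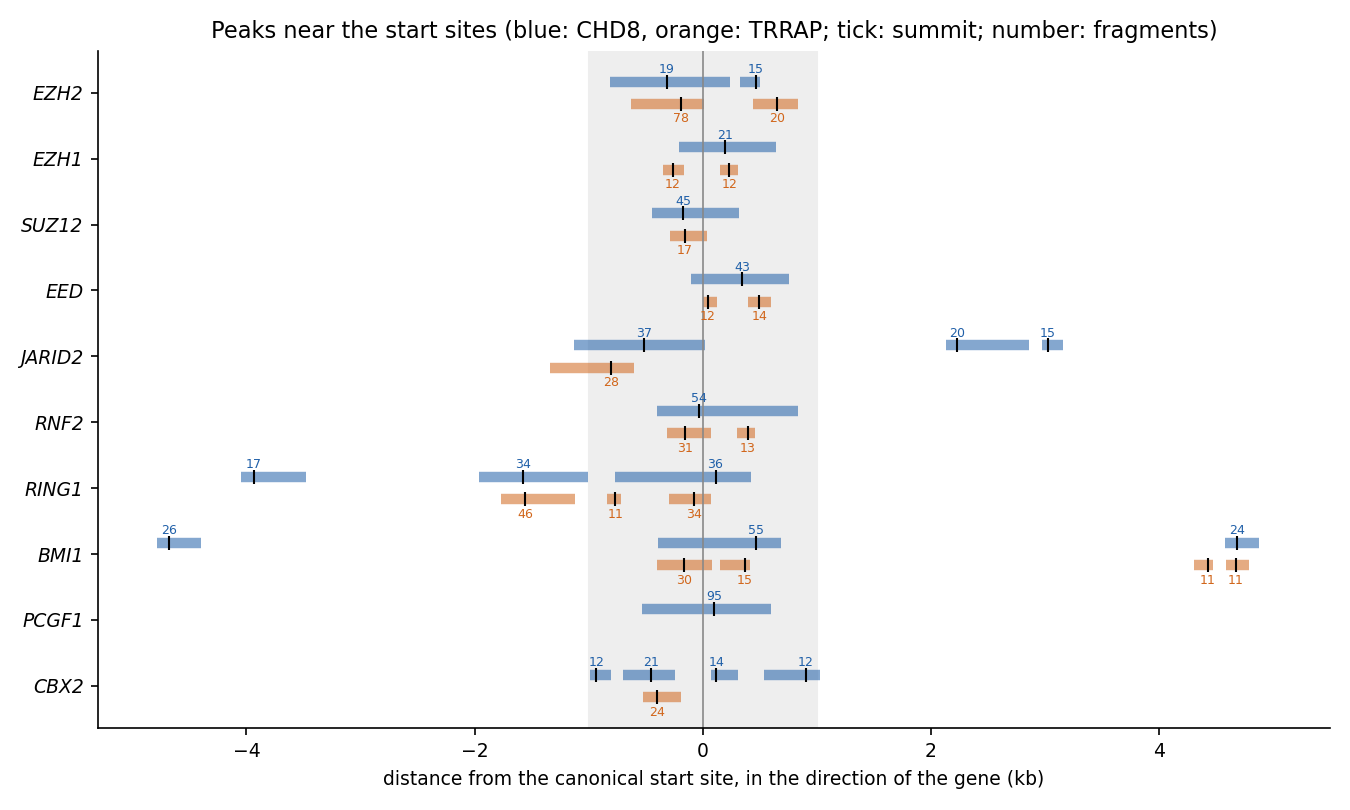
Listed peaks around each canonical start site (x axis, distance in kb in the direction of the gene), 1 row per gene, with CHD8 above in blue and TRRAP below in orange. Ticks are summits, numbers are summit counts and the grey band is the promoter window, in which every gene has a CHD8 peak and PCGF1 alone has no TRRAP peak.

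Within PRC2, the paralogs EZH2 and EZH1 differed in TRRAP. EZH2 (ENSG00000106462.12, minus strand) starts at chr7 position 148884291 and EZH1 (ENSG00000108799.13, minus strand) at chr17 position 42745040. The TRRAP peak at the EZH2 start, chr7:148884282-148884918, had a summit count of 78 (95% interval 61.7 to 97.3), a fold of 37.8 and a −log10 q of 102. It ranked 156 among all 14735 TRRAP peaks, and 50 of 7000 coding genes with a TRRAP promoter peak reached its count. EZH1 had a pair of TRRAP peaks, chr17:42744726-42744888 and chr17:42745203-42745390, each with a summit count of 12 (6.20 to 21.0) and a fold of 6.26. The intervals of EZH2 and EZH1 did not overlap. In the CHD8 list the intervals of the same promoters overlapped: the EZH2 peak chr7:148884051-148885105 had a count of 19 (11.4 to 29.7) and the EZH1 peak chr17:42744397-42745245 had a count of 21 (13.0 to 32.1).

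The CHD8 count of EZH2 was in the lower range, and 9051 of the 11208 coding genes with a CHD8 promoter peak reached it. Of 994 coding genes with both proteins and a CHD8 count of 19 or less, 4 had a TRRAP count of 78 or more. Both limits are the values of EZH2 itself, which is among the 4. The median TRRAP count of the 994 was 16. Of all 7000 coding genes with a TRRAP promoter peak, 50 reached a count of 78, with a median CHD8 count of 31. The EZH2 TRRAP summit lay 189 bp upstream of the start, within a CpG-rich stretch that carries the NFY word CCAATCA in reverse near its 3′ end. A second site followed inside intron 1 of EZH2, where a TRRAP peak of count 20 at 653 bp downstream overlapped a CHD8 peak of count 15 at 468 bp. At EZH1, the CHD8 summit lay in intron 1, 194 bp downstream of the start, with TRRAP summits at 260 bp upstream and 235 bp downstream.

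SUZ12 (ENSG00000178691.11, plus strand, start 31937007) had 1 peak of each protein: CHD8 at chr17:31936567-31937323 with a count of 45 (32.8 to 60.2) and a fold of 20.4, and TRRAP at chr17:31936723-31937042 with a count of 17 (9.90 to 27.2) and a fold of 8.65. The summits lay 170 and 153 bp upstream of the start, 17 bp apart, and the E2F word TTTCCCGC lay within 100 bp of both. This promoter is duplicated on the same chromosome beside the pseudogene SUZ12P1, and 100 of the 101 bases around the CHD8 summit are identical at the other copy, near position 30731477. The other copy had its own peaks, CHD8 at chr17:30731227-30732181 with a count of 34 and TRRAP at chr17:30731367-30731578 with a count of 30. Of the 32-base words in the SUZ12 peaks, 51.2% (CHD8) and 27.3% (TRRAP) occur once in the genome, so fragments may have been assigned to either copy. No other collected summit lay in sequence of more than 1 copy, and without SUZ12 there were 9 of 9 genes with CHD8 and 8 of 9 with both.

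EED (ENSG00000074266.23, plus strand, canonical start 86244753) had a wide CHD8 peak, chr11:86244653-86245513, with a count of 43 (31.1 to 57.9), a fold of 19.5 and a summit 349 bp downstream of the start in the 5′ untranslated part of exon 1. A pair of weak TRRAP peaks lay under it, with counts of 12 (6.20 to 21.0) at 48 bp and 14 (7.65 to 23.5) at 497 bp downstream, on either side of the CHD8 summit. A lncRNA, ENSG00000288809, starts on the opposite strand 220 bp downstream of the EED start, inside the same CHD8 peak, so occupancy there could not be assigned to 1 of the genes. The annotation also places an EED transcript start at 86201212, far upstream, and no peak of either list was collected there.

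JARID2 (ENSG00000008083.14, plus strand, start 15246069) held 9 of the 26 CHD8 peaks and 4 of the 21 TRRAP peaks collected from the 10 genes. At its promoter, CHD8 covered chr6:15244942-15246087 with a count of 37 (26.1 to 51) and a summit 511 bp upstream of the start. TRRAP covered chr6:15244729-15245470 with a count of 28 (18.6 to 40.5), its summit 805 bp upstream of JARID2 but 264 bp from the start of JARID2-DT, a divergent lncRNA. With a promoter window of 500 bp in place of 1 kb, JARID2 no longer counted as a TRRAP gene. The next CHD8 peaks, of counts 20 and 15, lay 2233 and 3030 bp downstream in intron 1, near the start of JARID2-AS1 and a second JARID2 start at 15248855, and had no TRRAP partner. A further CHD8 peak of count 21 lay 18903 bp downstream, also without TRRAP.

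Intron 2 of JARID2 carried a cluster of 4 CHD8 and 3 TRRAP peaks within 5265 bp, 154 to 159 kb downstream of the start. The CHD8 counts were 14, 19, 14 and 14, and the first 3 of these peaks overlapped TRRAP peaks of counts 15, 14 and 14, with summits 63, 21 and 17 bp apart. The fourth CHD8 peak, at 159315 bp, and a further intronic peak of count 19 at 175060 bp, in intron 3, had no TRRAP peak. The nearest annotated start of any gene was 75.8 kb from the cluster. Its peaks had CpG ratios of 0.310 to 0.739, and the sequence printed for the site 154695 bp downstream matched none of the searched words. The lower 95% bounds of the cluster's counts were 7.65 to 11.4, around the lowest counts in the lists. Outside the promoter JARID2 had 8 CHD8 and 3 TRRAP peaks; of 1502 coding genes of 200 kb or more, 37 had as many CHD8 peaks (median 1) and 122 as many TRRAP peaks (median 0).

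**Figure D2:**
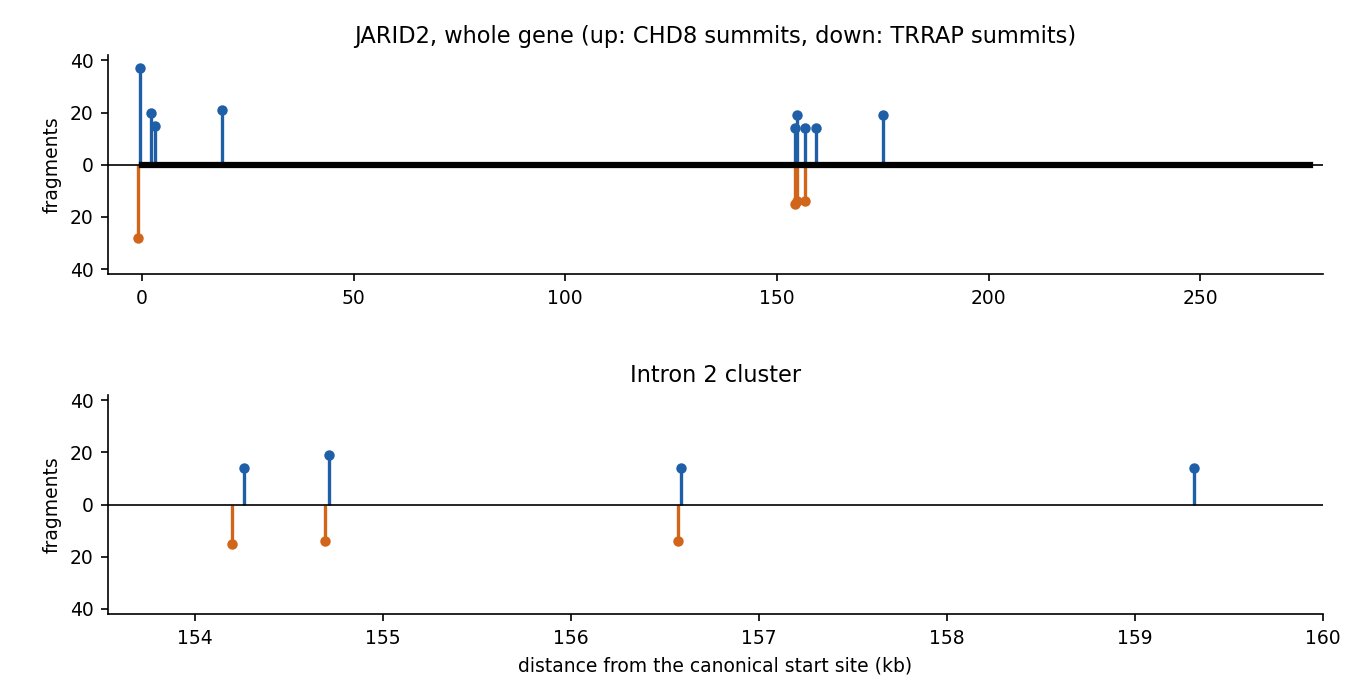
Summit counts (y axis, fragments) along JARID2 against distance from the canonical start site (x axis, kb), with CHD8 upward in blue and TRRAP downward in orange. The upper panel shows the whole gene as a black bar and the lower panel the intron 2 cluster, where 3 of 4 CHD8 summits have a TRRAP summit beside them.

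Within PRC1, the ligase genes RNF2 and RING1 had promoter peaks of both proteins whose counts overlapped in their intervals. RNF2 (ENSG00000121481.11, plus strand, start 185045558) had a CHD8 peak of 1239 bp, the widest of the collection, at chr1:185045159-185046397, with a count of 54 (40.6 to 70.5), a fold of 24.3 and a summit 33 bp upstream of the canonical start. Its TRRAP peaks had counts of 31 (21.1 to 44) at 151 bp upstream and 13 (6.92 to 22.2) at 398 bp downstream. RING1 (ENSG00000204227.5, plus strand, start 33208500) had a CHD8 count of 36 (25.2 to 49.8) at chr6:33207733-33208927 and a TRRAP count of 34 (23.5 to 47.5) at chr6:33208209-33208574, with summits 114 bp downstream and 77 bp upstream of the start. A lncRNA, ENSG00000288751, starts 27 bp upstream of RING1 on the opposite strand.

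RING1 also had the strongest pair of peaks outside a promoter window. CHD8 at chr6:33206543-33207499 had a count of 34 (23.5 to 47.5) and TRRAP at chr6:33206735-33207377 had a count of 46 (33.7 to 61.4), with summits 1571 and 1553 bp upstream of RING1 and 18 bp apart. The TRRAP count there was above the 34 at the RING1 start, within overlapping intervals, and 96.3% of the TRRAP list ranked below it. The site is poor in CpG, with ratios of 0.196 and 0.248 over the CHD8 and TRRAP peaks, and its printed sequence matched no searched word. The nearest annotated start, 888 bp from the TRRAP summit, is that of the microRNA hairpin MIR219A1, whose own start had a weak TRRAP peak 99 bp away with a count of 11 (5.49 to 19.7). A CHD8 peak of count 17 at 3938 bp upstream of RING1 lay 93 bp from the start of HSD17B8, a neighbouring gene, and had no TRRAP partner.

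Of the PCGF genes, PCGF1 had a higher CHD8 count than BMI1 and, unlike BMI1, no listed TRRAP peak. BMI1 (ENSG00000168283.14, plus strand, start 22321099) had a CHD8 peak at chr10:22320705-22321784 with a count of 55 (41.4 to 71.6), a fold of 24.8 and a summit 472 bp downstream of the start in the 5′ untranslated part of exon 1. TRRAP counts at BMI1 were 30 (20.2 to 42.8) at 162 bp upstream and 15 (8.40 to 24.7) at 368 bp downstream, and the E-box CACGTG lay within 100 bp of the stronger TRRAP summit. The E-box stands near the 3′ end of the printed window, close to the limit of the searched distance. PCGF1 (ENSG00000115289.14, minus strand, start 74507695) had the strongest CHD8 peak of the group, chr2:74507092-74508226, with a count of 95 (76.9 to 116), a fold of 42.5 and a −log10 q of 130, ranked 211 of 23393. The CHD8 intervals of PCGF1 and BMI1 did not overlap, and 152 of 11208 coding genes reached the count of PCGF1.

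No TRRAP peak was listed anywhere between 5 kb upstream of PCGF1 and its end. That region holds every promoter window tried around the canonical start, so those windows add no separate check. Among the 152 coding genes with a CHD8 count of 95 or more, 134 (88.2%) had a TRRAP promoter peak, and PCGF1 was among those without. The limit of 95 is the count of PCGF1 itself, which is among the 152. The CHD8 summit lay 98 bp downstream of the start, in coding sequence of exon 1, and the YY1 word AAGATGGCG stood within 100 bp of it on the strand of the gene. No TRRAP peak with fewer than 9 fragments was listed for any gene, so a weaker signal at PCGF1 could not have been detected in this list.

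BMI1 had 2 further sites. A CHD8 peak of count 26 (17.0 to 38.1) lay 4676 bp upstream, at the start of COMMD3, from which the read-through gene COMMD3-BMI1 also starts, and had no TRRAP peak. A CHD8 peak of count 24 (15.4 to 35.7) lay 4690 bp downstream in intron 1, 119 bp from an alternative BMI1 start, and overlapped a TRRAP peak of count 11 (5.49 to 19.7) whose summit was 14 bp away. A neighbouring TRRAP peak at 4431 bp, also of count 11, was the 1 TRRAP peak of the collection without a CHD8 peak, and 3 copies of the SP word GGGGCGGGG lay within 100 bp of its summit.

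CBX2 (ENSG00000173894.11, plus strand, start 79778148) had 4 separate CHD8 peaks in its promoter window in place of 1 wide peak, a number that 37 of 11208 coding genes reached. Their counts were 12 (6.20 to 21.0) at 931 bp upstream, 21 (13.0 to 32.1) at 448 bp upstream, 14 (7.65 to 23.5) at 122 bp downstream and 12 at 905 bp downstream. All 4 intervals overlapped, so the peaks could not be ranked. TRRAP had 1 peak, chr17:79777629-79777960, of count 24 (15.4 to 35.7), 47 bp from the CHD8 summit of count 21.

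**Figure D3:**
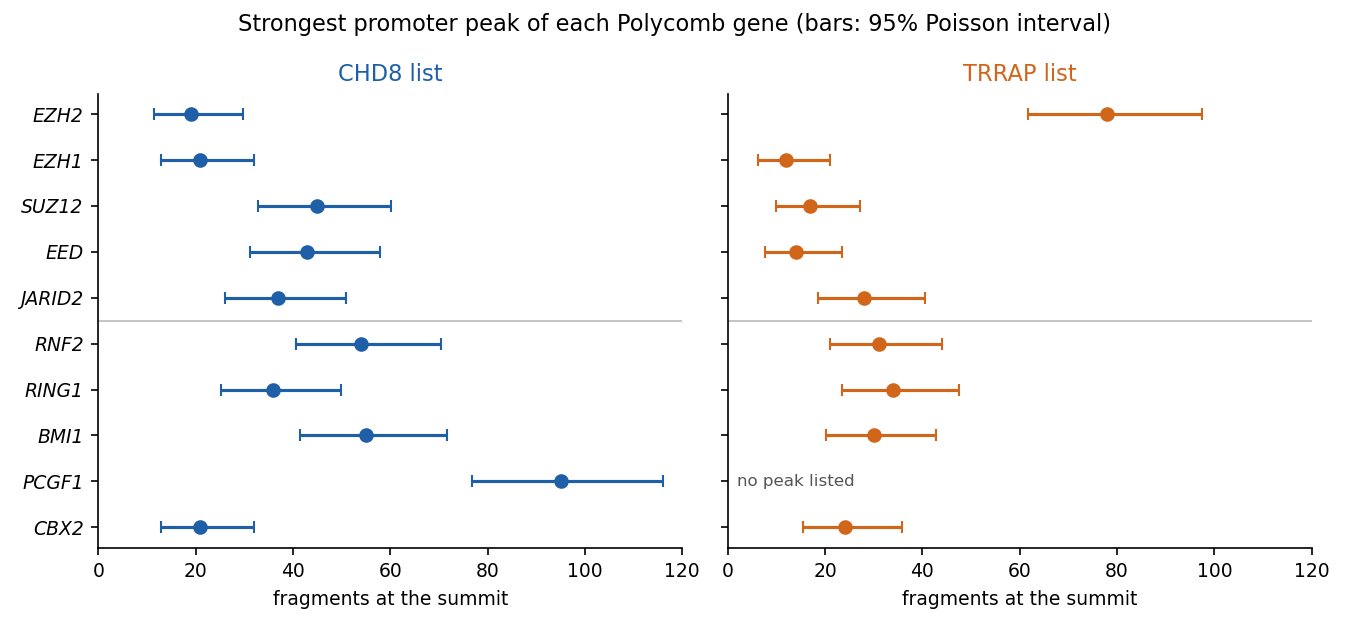
Summit count of the strongest promoter peak of each gene (points, x axis in fragments) with the exact Poisson 95% interval (bars), CHD8 at left and TRRAP at right, PRC2 genes above the grey line and PRC1 genes below. EZH2 stands apart at 78 in TRRAP but not in CHD8, and PCGF1 has the highest CHD8 count, 95, and no TRRAP peak.

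Among the 10 genes, the order of the CHD8 counts was PCGF1, BMI1, RNF2, SUZ12, EED, JARID2, RING1, then EZH1 and CBX2 with equal counts, then EZH2. Neighbours in this order had overlapping intervals except PCGF1 and BMI1. The order of the TRRAP counts was EZH2, RING1, RNF2, BMI1, JARID2, CBX2, SUZ12, EED, EZH1, and neighbours had overlapping intervals except EZH2 and RING1. The median CHD8 count was 37 for the 5 PRC2 genes and 54 for the 5 PRC1 genes. For TRRAP the medians were 17 and 30.5, with 5 and 4 genes. The ranges of the complexes overlapped in both lists, from 19 to 45 and 21 to 95 for CHD8 and from 12 to 78 and 24 to 34 for TRRAP.

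**Figure D4:**
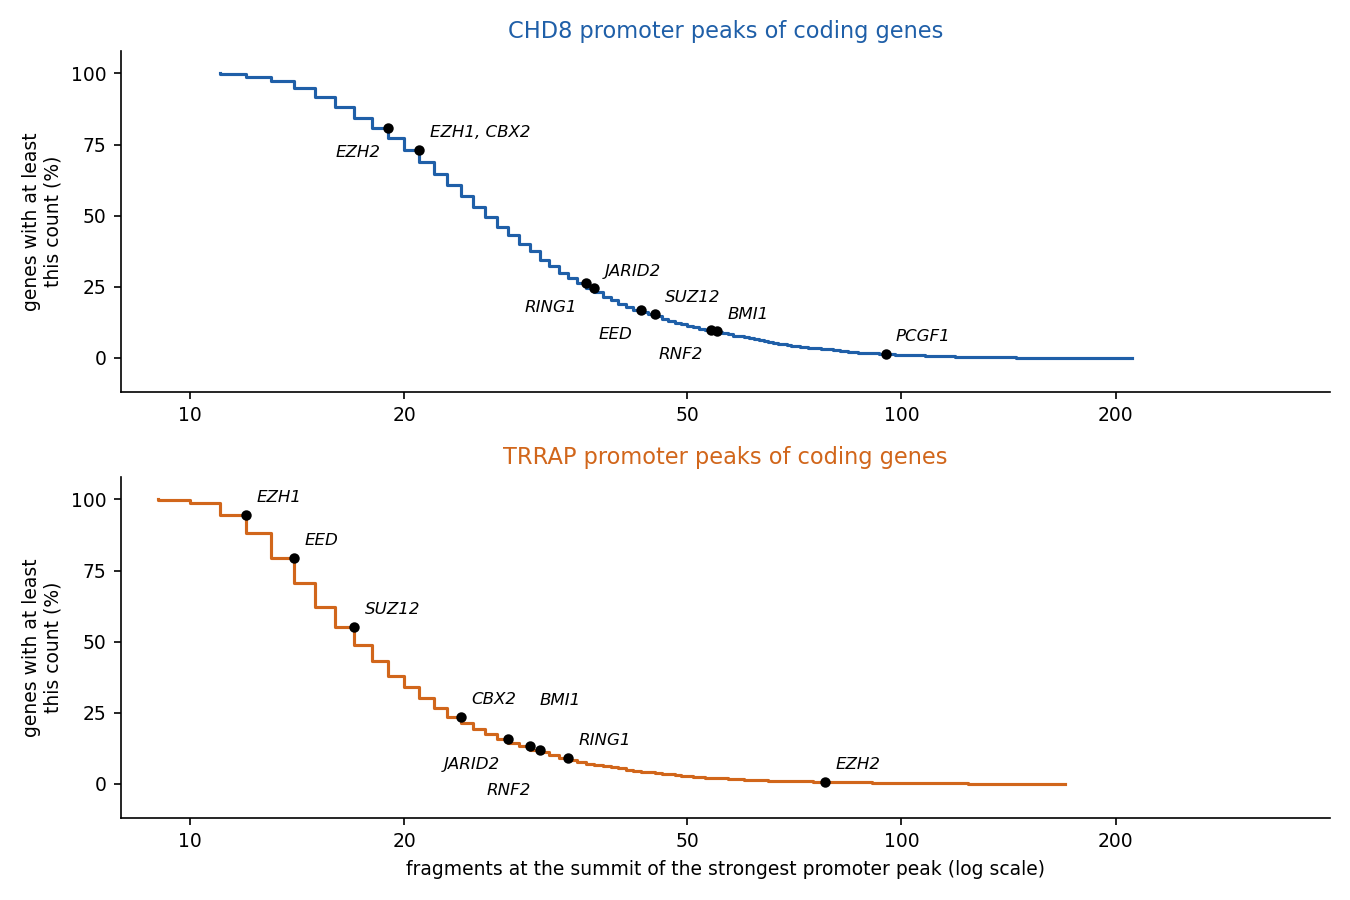
Share of coding genes with a promoter peak whose strongest peak reached a given summit count (y axis, %; x axis, fragments, log scale), for CHD8 above and TRRAP below. Points mark the Polycomb genes: PCGF1 lies in the upper tail for CHD8 and EZH2 in that for TRRAP, while EZH1 is low in both.

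At several subunit promoters TRRAP was split into separate peaks. Of the 9 genes with both proteins, 6 had at least 2 TRRAP promoter peaks, against 24.3% of coding genes with both. In 5 of the 9 (EZH1, EED, RNF2, RING1 and BMI1) at least 2 TRRAP peaks overlapped the strongest CHD8 peak by 1 bp or more, against 17.9% of such genes. The lower-ranked TRRAP peak of each pair was weak, with counts of 12, 12, 13, 11 and 15 in that order of genes. The median count of the TRRAP list was 16. These weak peaks ranked from 8648 to 14440 of 14735, so none was above the median rank, and the splits rest on them. At EZH1 the summit of the upstream TRRAP peak lay outside the CHD8 peak, and at RING1 the weaker TRRAP peak, the one near MIR219A1, lay across its edge. Counting TRRAP summits inside the CHD8 peak left 4 of the 9 genes, without EZH1, against 16.4%. Among genes whose CHD8 peak was at least 849 bp wide, the overlap was found in 5 of 7 subunit genes, EZH2 and JARID2 being the others, against 35.0% of coding genes. At EZH1, EED and RNF2 the CHD8 summit lay between the pair of TRRAP summits, and at RING1 and BMI1 it lay downstream of both. The width of 849 bp is that of the narrowest of these 5 peaks, so it was chosen with the values known, and the part of CHD8 peak width in the count was not tested.

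Over the whole regions, 20 of the 21 TRRAP peaks overlapped a CHD8 peak by at least 1 bp, against 90.1% of TRRAP peaks in coding gene regions. In the other direction 15 of the 26 CHD8 peaks overlapped TRRAP (57.7%), against 48.0%. Promoter windows held 14 CHD8 peaks, of which 10 overlapped TRRAP, and 15 TRRAP peaks, all of which overlapped CHD8. The 4 CHD8 promoter peaks without TRRAP were that of PCGF1 and 3 of the CBX2 peaks. Outside promoters there were 12 CHD8 peaks, with counts from 14 to 34, and 6 TRRAP peaks, with counts from 11 to 46. They came from JARID2, RING1 and BMI1, so 3 of 10 genes had such peaks of either protein, against 24.3% of coding genes for CHD8 and 15.2% for TRRAP. Peaks outside promoters were narrower, with a median of 272.5 bp against 855 bp for CHD8 and 155.5 bp against 320 bp for TRRAP, and 5 of the 12 CHD8 and 2 of the 6 TRRAP summits lay within 500 bp of an annotated start of some gene. They were also lower in GC, with a median of 56.1% against 68.9% for CHD8 and 58.9% against 73.8% for TRRAP.

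Exact matches to short sequence words, read in either orientation, were looked for up to 100 bp from the strongest promoter summits: CACGTG (E-box), TTTCCCGC with TTTGGCGC, TTTCGCGC and TTTGCCGC (E2F), CCGGAAGT (ETS), CGCATGCGC (NRF1), AAGATGGCG (YY1), AGGGGGCGC (CTCF), CCAATCA or CCAATGA (NFY) and GGGGCGGGG (SP). At the CHD8 summits 4 of 10 genes had at least 1 word, against 41.8% of 9889 distinct promoter summits: E2F in SUZ12, YY1 in PCGF1, and SP in EED and RING1. At the TRRAP summits 5 of 9 genes had one, against 43.4% of 6191: NFY in EZH2, E2F in SUZ12, the E-box in BMI1, and SP in EED and JARID2. Over all promoter summits the E-box was found at 6.87% for CHD8 and 8.96% for TRRAP, the E2F words at 3.63% and 4.52%, the NFY words at 5.02% and 4.51%, the YY1 word at 5.37% and 3.30%, and the SP word at 18.2% and 22.4%. The ETS word (7.16% and 4.26%), the NRF1 word (1.81% and 2.02%) and the CTCF word (2.61% and 2.94%) matched none of the strongest promoter summits of the subunit genes. At this distance the counts of the subunit genes were near the shares of all promoters. A match is a description of these letters and says nothing of which factor binds.

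The wider Polycomb system was followed in 38 other genes: 36 had a CHD8 promoter peak, 24 a TRRAP promoter peak and 23 both. Over all coding genes the shares were 55.9%, 34.9% and 34.0%. The 38 genes had a median CpG ratio of 0.899, against 0.725 over all coding genes, and were not set against genes of like CpG ratio. Their median counts were 28.5 for CHD8 and 21 for TRRAP, against 26 and 17 over coding genes with a peak. The PRC2 partners had both peaks in 6 of 9 genes and included the highest CHD8 counts, 109 at MTF2 and 72 at RBBP4, a Polycomb-like protein and a histone-binding subunit, and the TRRAP counts of 54 at PHF1 and 44 at AEBP2, further accessory subunits. EZHIP, an inhibitor of PRC2, had neither protein, and EPOP, an accessory subunit, had TRRAP with a count of 23 and no CHD8 peak. The remaining PCGF and CBX genes had CHD8 in 8 of 8 and both in 5.

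Other PRC1 genes had CHD8 in 15 of 15 and TRRAP in 7, against 55.9% and 34.9% of coding genes. L3MBTL2, a subunit of a variant PRC1, had a CHD8 count of 57 and no TRRAP peak. Of the genes of the deubiquitinase PR-DUB, which removes the PRC1 mark, 6 of 6 had CHD8 and 5 had both. Over all coding genes, 34.0% had both. Among them ASXL1 had a TRRAP count of 71, the highest of the 38 genes, at a CHD8 count of 39.

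**Figure D5:**
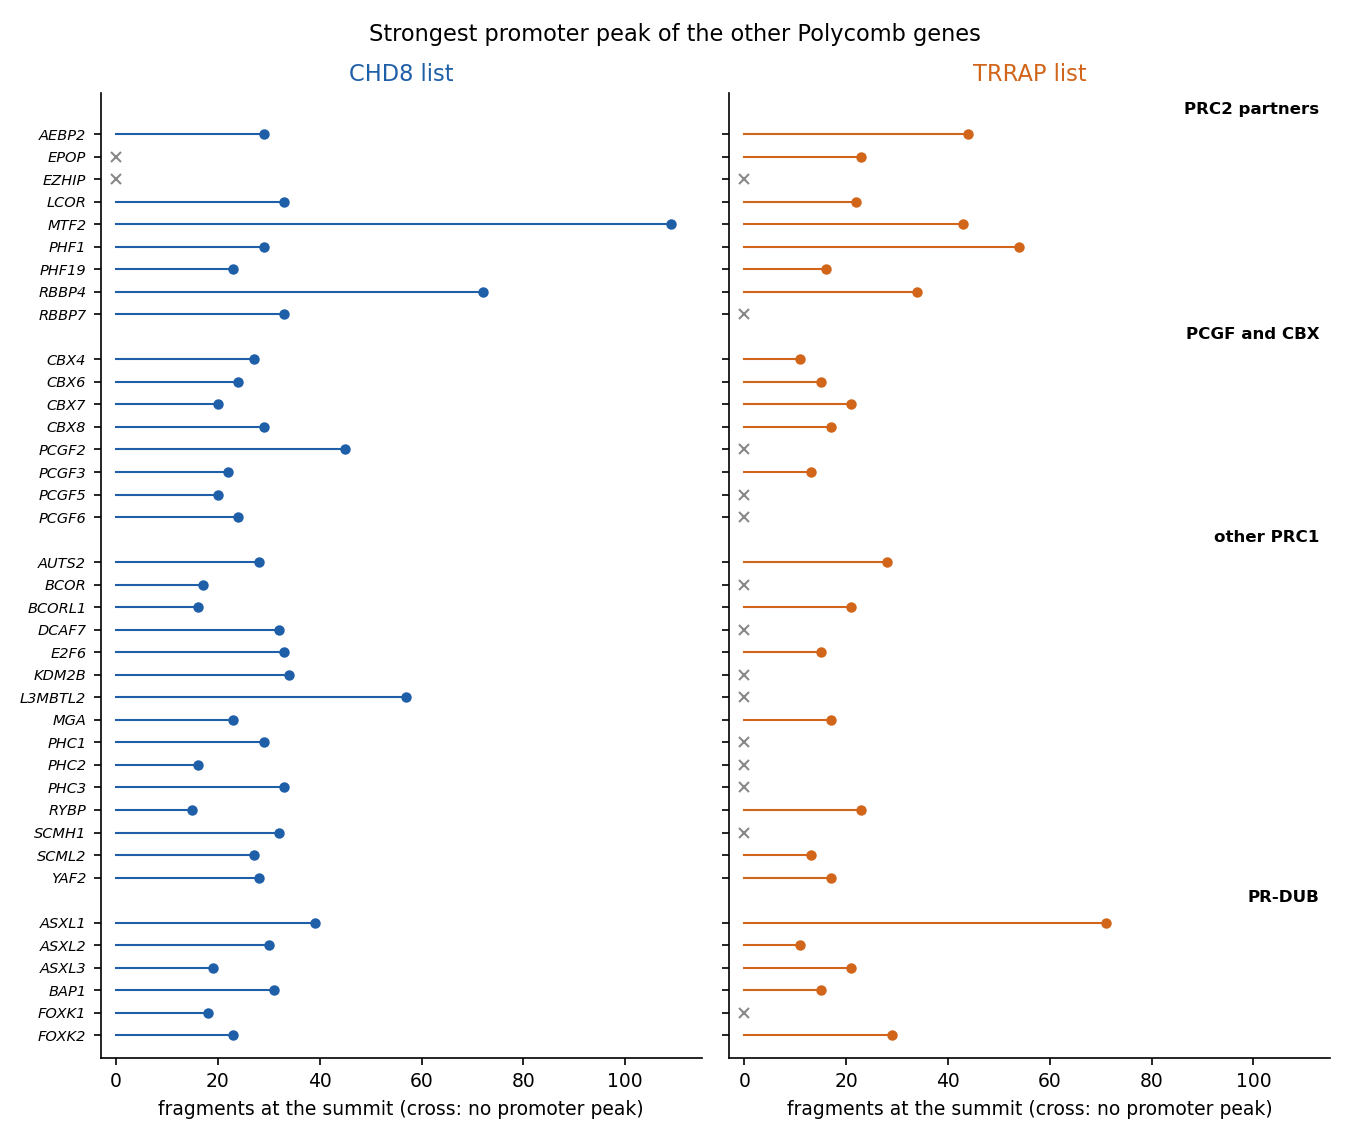
Summit count of the strongest promoter peak (x axis, fragments) of 38 other Polycomb genes by group, CHD8 at left and TRRAP at right, with crosses where no promoter peak was listed. MTF2 leads in CHD8 at 109 and ASXL1 in TRRAP at 71. In the third group 8 of 15 genes have no TRRAP promoter peak and 7 have one, against 34.9% of coding genes with one.

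Promoters of cell type marker genes were also looked at. A peak is not a measure of expression, so these counts do not settle the identity of the cells. All 6 neural stem cell genes (SOX2, NES, PAX6, SOX1, FABP7 and VIM) had a CHD8 promoter peak and 5 had a TRRAP peak. Over all coding genes the shares were 55.9% and 34.9%. The pluripotency genes POU5F1 and NANOG had neither, and of the neuronal genes SYP had a CHD8 peak with a count of 16, RBFOX3 had none, and neither had TRRAP.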

How the data were processed

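Per the submitters' processing notes, the tools were HISAT2 and MACS2 2.1.1.20160309 and the build was GRCh38; the control is not given in the sources used here. By its deposited name the CHD8 list was filtered at an FDR of 0.0001 and the TRRAP list at 0.001; the stricter limit would keep 14712 TRRAP peaks. Each deposited list (23393 CHD8 and 14735 TRRAP peaks, 1 library each) gives a linear fold, −log10 p, −log10 q and a summit position as deposited, and a score, which in every deposited peak equals 10 times the −log10 q, rounded down.

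Summit counts n were computed from fold = (s × n + 1)/(b + 1), where s is the factor that scales a fragment and b the background, both fitted per list. For CHD8 s was 0.937 and b 1.12, and for TRRAP 0.912 and 0.910. All n were whole within 4.16e-05, and the −log10 p then computed matched the deposited value within 0.02 in 99.9% of peaks of each list. The depth per library is unknown, and PCR copies may be included.

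Starts are those of GENCODE 44 canonical transcripts. CpG ratios cover 500 bp on each side of the start. Ranks follow −log10 q, then fold and width. Copies are occurrences of the 32-base words around a summit, alternate haplotypes left out. By rule the text names the 10 subunit genes, genes starting within 1 kb of their promoters, and of the 38 others the 3 with the highest fold per list and those without CHD8; COMMD3, HSD17B8 and JARID2-AS1 are named as starts nearest to a collected peak. Members and lists were chosen with earlier results of these data known. Look-ups and count recovery were tested on simulated data. The analysis used pysam 0.24.0 for sequence, numba 0.67.0 for word counting and scipy 1.17.1 for intervals, under Python 3.11.15 with pandas 2.3.3.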

Additional observations from a re-analysis of the deposited data

How the results depend on the processing

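Restriction to peaks above the median rank of their list left 14 of 26 CHD8 peaks and 9 of 21 TRRAP peaks in the regions. There were 7 TRRAP peaks overlapping CHD8 in place of 20, and 12 other Polycomb genes with both proteins in place of 23. The restriction shortens both lists by design, and the loss to be expected from that was not computed. Under this restriction EZH2 had no CHD8 promoter peak, EED and EZH1 joined PCGF1 in having no TRRAP promoter peak, and 6 of 10 genes had both. The share of all coding genes under the same restriction is not given here. The counts under it therefore cannot be set against a background. The number of CHD8 promoter summits with a searched word was 1 of 10 within 50 bp and 8 of 10 within 250 bp, in place of 4 within 100 bp, against 23.5%, 67.4% and 41.8% of all promoter summits. For the TRRAP summits this distance was not varied, and the words at EZH2 and BMI1 lay close to its limit. Every other alternative stayed within 1.5 times the reported count: windows of 500 and 2500 bp, starts of all transcripts, summits in the window, regions from 1 or 10 kb upstream, overlap of 50% of the shorter peak (17 TRRAP peaks) or summits within 200 bp (14), and single-copy summits, the last chosen after the data were seen. With 1 library per antibody no replicate could be left out.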
